A study of Mus musculus with 104 samples.

Results

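Messenger RNA was compared between whole mouse lungs exposed to phosgene and whole lungs given air, all taken at the time labelled 24, to ask which lung genes differed at that time. Phosgene is a reactive carbonyl chloride gas used in chemical industry. The phosgene lungs carry the code CG and an amount of 32 mg in their descriptions, and the air lungs are described as air at the same time. Selection by that exposure and time gave 3 phosgene lungs and 3 air lungs, 6 of the 52 lungs of the series, each measured on 2 chips (oligonucleotide expression arrays) whose log2 values were averaged. The other lungs, exposed to phosgene or air and taken at 7 other times, or untreated, served to estimate the spread between lungs of a group and for the comparisons with 12 h and 48 h. The labels give no unit for the time and no volume for the amount, so reading them as hours and as milligrams in a volume of air comes from what is known of the study. The sources used here give no strain, sex or age. Whether a lung number stands for 1 animal is not in the labels, and p values therefore measure only how far numbered lungs of a group lie apart, which may be technical.

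Phosgene reacts with the amines and thiols of proteins and lipids lining the airways and air sacs. It damages the barrier between air and blood, and fluid fills the lung after a delay. Injured lung is known to switch on several programmes at once: oxidant defence through the transcription factor NRF2, chaperones through heat shock factor, acute phase proteins through interleukin 6 and STAT3, and a spreading, keratin-rich state of the epithelium that closes the wound. RNA of a whole lung pools all its cells, so fewer cells of a type and less RNA per cell cannot be told apart.

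Values below are signal intensities scaled by the authors to a common chip mean. For a lung they come from the mean log2 of its 2 chips, and lungs are listed in the order 1, 2 and 3. A log2 change is the phosgene mean minus the air mean of log2(intensity + 16), with its standard error (SE). A fold is 2 to the power of that change, so it is damped for dim genes, and intensities are not compared between genes. Genes were tested with limma across all 52 lungs, and a gene was called at a Benjamini-Hochberg adjusted p under 0.05 over 12393 genes. All adjusted p values below come from that fit.

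The lungs carried the defining markers of lung. Sftpc, the surfactant protein of alveolar type 2 cells, had 4642, 5579 and 5599 intensity units in phosgene lungs and 6652, 6512 and 5479 in air lungs. Scgb1a1, the club cell secretoglobin, had 4896, 5519 and 5629 in phosgene lungs and 6493, 6455 and 5638 in air lungs. Neither was called, nor were Ager of alveolar type 1 cells or Pecam1 of endothelium. Of tissue that can come along with a dissected lung, the fat marker Adipoq had 36.4, 63.3 and 57.2 in phosgene lungs and 151, 88.7 and 93.2 in air lungs (adjusted p = 0.562), and the atrial muscle marker Myl7 had 367, 497 and 500.1 in phosgene lungs and 664, 601 and 664 in air lungs (adjusted p = 0.214). Both were lower in every phosgene lung than in every air lung without passing the test, and their part in the results below was not tested. The thymus gene Rag1 was at most 22.5 units in any of the lungs.

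Of 12393 genes, 246 differed, which is 1.98%, and 1464 (11.8%) had an unadjusted p under 0.05. Phosgene lungs had 130 genes higher (1.05% of all genes) and 116 lower (0.936%). Counts of called members of gene lists below are to be read against these shares, at which a short list would often hold no call. The rises were the larger changes: 50 genes rose and 15 fell by at least 2-fold. In 240 of the 246 called genes all 3 phosgene lungs lay beyond all 3 air lungs, an arrangement found in 18.8% of all genes. The call of 69 genes, 46 higher and 23 lower, held whichever of the 6 lungs was left out. The count of called genes was 224 without phosgene lung 2, the lung nearest to air in 81 of the 130 higher and 62 of the 116 lower genes, but 94 without phosgene lung 3, 113 without phosgene lung 1, and 135, 136 and 159 without air lungs 2, 3 and 1. The ratio of 3′ to 5′ signal of the Gapdh control, which falls with intact RNA, was 0.816, 1.22 and 0.833 in phosgene lungs and 1.07, 0.739 and 0.814 in air lungs, highest in phosgene lung 2, and its part in the position of that lung was not tested. Statements that a call held mean all 6 of these omissions. In the 4 hybridization days that held chips of both groups, 123 of the 130 higher and 109 of the 116 lower genes differed in the same direction on every day, against 28.3% of all genes with 1 sign throughout. The median within-day change was 0.82 for the higher genes and −0.58 for the lower genes, against 0.84 and −0.62 over all lungs, and the days of phosgene lung 1 held no air lung of 24 h. Both comparisons reuse the chips that gave the calls. Agreement among called genes was therefore largely fixed by their selection and is not added support.

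**Figure D1:**
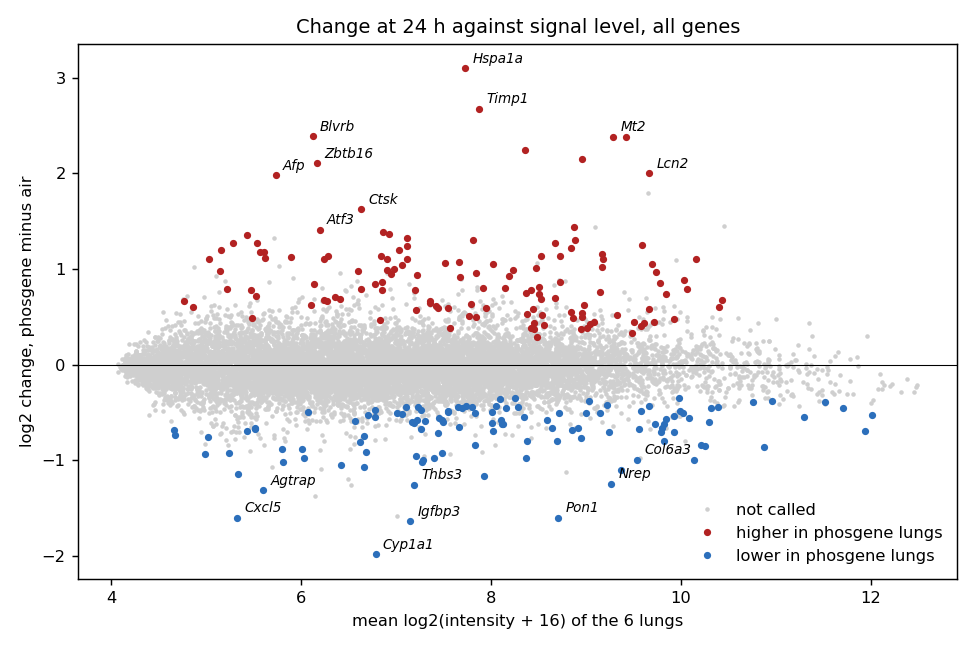
Log2 change at 24 h, phosgene minus air (vertical axis), against the mean log2(intensity + 16) of the 6 lungs (horizontal axis), for 12393 genes. Red points are the 130 genes called higher and blue points the 116 called lower in phosgene lungs, and the highest points, such as Hspa1a at 3.10, lie farther from 0 than the lowest, Cyp1a1 at −1.99.

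The largest rise was in the stress chaperone Hspa1a, an inducible HSP70 that binds unfolded proteins. Its intensity was 598, 661 and 556 in phosgene lungs, against 46.4, 79.7 and 47.3 in air lungs. All phosgene lungs lay far above all air lungs, and the gene was 8.56-fold higher (3.10 ± 0.41 SE on the log2 scale, adjusted p = 4.58e-06). Hspa1b, its neighbouring copy, was 4.43-fold higher (2.15 ± 0.38 SE on the log2 scale, adjusted p = 0.000466), and both calls held. Probe sets for such near-identical copies may share signal, so each value alone is uncertain. Among 23 genes for heat shock and folding there were 2 rises, 1 fall and 20 without a call, with a median log2 change of 0.10 against −0.04 for all genes. The constitutive chaperone Hspa8 had 1645, 2084 and 2311 in phosgene lungs and 2202, 2401 and 2124 in air lungs, and the heat-induced Hsph1 had 282, 372 and 313 in phosgene lungs and 292, 300.2 and 277 in air lungs, so the groups overlapped for both. The member that fell, Serpinh1, is the collagen chaperone of the endoplasmic reticulum and is described with the matrix genes.

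The promoters of both HSP70 copies are shown because they rose together and their windows differ at 3 of 250 positions. Each line gives the 250 bases before the gene start in RefSeq (build GRCm38.p6), 5′ to 3′ on the strand of the gene, Hspa1a at chr17:34972157-34972406, minus strand and Hspa1b at chr17:34959239-34959488, minus strand. Capitals mark the only match to GAANNTTC, the core of a heat shock element, which reads the same on both strands. It begins 104 bases before the start in each.
Hspa1a: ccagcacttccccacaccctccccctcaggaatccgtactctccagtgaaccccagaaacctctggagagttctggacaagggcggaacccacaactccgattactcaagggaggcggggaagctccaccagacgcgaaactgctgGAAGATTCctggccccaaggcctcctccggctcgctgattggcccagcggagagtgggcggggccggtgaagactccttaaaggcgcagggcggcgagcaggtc
Hspa1b: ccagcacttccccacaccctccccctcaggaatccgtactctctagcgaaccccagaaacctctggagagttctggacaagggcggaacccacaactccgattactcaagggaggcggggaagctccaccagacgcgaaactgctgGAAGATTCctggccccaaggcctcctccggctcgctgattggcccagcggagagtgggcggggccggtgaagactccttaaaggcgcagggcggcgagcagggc
This core occurred in 8 of the 19 heat shock and folding genes with such a window, and in 7.73% of 27025 RefSeq genes. The other 6 genes that hold it, among them Dnaja1 and Hspd1, were not called at 24 h. A match is a string of letters and shows no binding.

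Metallothioneins, small cysteine-rich proteins that bind zinc and copper and trap oxidants, rose as a pair. Mt2 had 1457, 1152 and 1667 in phosgene lungs, against 235, 306 and 237 in air lungs. The lowest phosgene lung was far above the highest air lung, and Mt2 was 5.21-fold higher (2.38 ± 0.29 SE on the log2 scale, adjusted p = 9.13e-07). Mt1 had 829.6, 457 and 1006 in phosgene lungs, against 305, 293 and 258 in air lungs, with phosgene lung 2 the lowest of its group. Mt1 was 2.47-fold higher (1.30 ± 0.30 SE on the log2 scale, adjusted p = 0.0106). The call of Mt2 held, while that of Mt1 was lost without phosgene lung 1, phosgene lung 3 or air lung 3 (adjusted p = 0.0792, 0.138 and 0.0622). The other 9 genes of the metallothionein and zinc transport list were not called, and the zinc exporter Slc30a1, often induced with metallothioneins, had 76.3, 85.9 and 81.0 in phosgene lungs and 68.9, 82.4 and 99.1 in air lungs.

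The metallothionein promoters are shown because the metal response element is the best known switch of these genes. The windows lie at chr8:94172368-94172617, plus strand for Mt2 and at chr8:94178839-94179088, plus strand for Mt1 (RefSeq, GRCm38.p6), and capitals mark matches to TGCGCNC or TGCACNC on either strand.
Mt2: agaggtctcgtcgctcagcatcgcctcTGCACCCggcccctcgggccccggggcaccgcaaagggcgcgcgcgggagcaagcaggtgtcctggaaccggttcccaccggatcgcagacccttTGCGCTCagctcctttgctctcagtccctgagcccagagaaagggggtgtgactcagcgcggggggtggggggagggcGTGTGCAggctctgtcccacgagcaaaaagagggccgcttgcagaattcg
Mt1: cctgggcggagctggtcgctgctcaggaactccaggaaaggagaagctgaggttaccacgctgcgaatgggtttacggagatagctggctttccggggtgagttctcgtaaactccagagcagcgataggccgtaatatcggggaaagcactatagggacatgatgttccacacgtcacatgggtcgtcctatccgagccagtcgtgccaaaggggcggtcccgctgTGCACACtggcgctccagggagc
Mt2 held 3 matches, beginning 223, 128 and 50 bases before the start, the last on the opposite strand, and Mt1 held 1 at 23 bases. These counts depend on the annotated start, and bases outside the windows were not searched. Of 9 genes of the list with a window, 6 held a match, against 23.8% of all 27025 genes, and 4 of the 6, Slc30a1 among them, were not called.

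Enzymes of the NRF2 programme supply glutathione and reducing power and detoxify oxidised products. Of 24 members 6 rose, 0 fell and 18 were not called, with a median log2 change of 0.43, and 21 of the 24 changes were positive, against 41.6% of all genes. The 6 called members were Blvrb, Gclc, Akr1b8, Txnrd1, Taldo1 and Me1, and the calls of the first 3 held. Blvrb, the reductase of biliverdin and flavins, had 105, 114 and 239.6 in phosgene lungs, against 12.6, 14.0 and 16.8 in air lungs. Phosgene lung 3 was the highest, all 3 were far above the air lungs, and Blvrb was 5.23-fold higher (2.39 ± 0.40 SE on the log2 scale, adjusted p = 0.000203). Gclc, which encodes the catalytic subunit that makes the glutathione precursor, had 832, 791 and 869.7 in phosgene lungs, against 478, 365 and 311 in air lungs. The groups were clearly apart, at 2.14-fold higher (1.10 ± 0.22 SE on the log2 scale, adjusted p = 0.0025). Akr1b8, an aldo-keto reductase, had 478, 439 and 554 in phosgene lungs and 256, 228 and 222 in air lungs (1.01 ± 0.13 SE on the log2 scale, adjusted p = 1.78e-06). Its SE was smaller than that of Gclc at a like change.

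Of well-known members of the same programme, Nqo1 and Hmox1 lay above air in every phosgene lung without passing the test. Such separation, in either direction, was found in 18.8% of all genes. Nqo1, the quinone reductase, had 127, 127 and 138 in phosgene lungs and 67.6, 75.2 and 57.0 in air lungs (adjusted p = 0.0616). Hmox1, heme oxygenase, had 136, 135 and 166 in phosgene lungs and 80.9, 70.2 and 79.8 in air lungs (adjusted p = 0.224). The 3 lungs of a group were close for both genes. In the fit over all lungs their SE were 0.24 and 0.30. The groups overlapped for the cystine transporter Slc7a11, with 42.8, 30.9 and 55.9 in phosgene lungs and 44.9, 47.2 and 34.7 in air lungs. Outside the list, the epithelial glutathione peroxidase Gpx2 was 2.51-fold higher (1.33 ± 0.23 SE on the log2 scale, adjusted p = 0.000271), at 218, 142 and 271 in phosgene lungs and 88.8, 69.7 and 58.8 in air lungs. Its call held. Gsta2, a glutathione S-transferase, was 2.14-fold higher (1.10 ± 0.29 SE on the log2 scale, adjusted p = 0.0374), and its call was lost in each of the 6 omissions, most clearly without phosgene lung 3 (adjusted p = 0.166).

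Txnrd1, the cytosolic thioredoxin reductase, was the only called NRF2 list member whose window held TGACNNNGC, the core of the antioxidant response element. It had 482, 439 and 596 in phosgene lungs, against 359, 277 and 283 in air lungs (0.69 ± 0.19 SE on the log2 scale, adjusted p = 0.0405), and its call was lost in 4 of the 6 omissions, without phosgene lung 1 or 3 or air lung 2 or 3 (adjusted p = 0.108, 0.273, 0.178 and 0.168). The window shown is 1 of 3 RefSeq starts of the gene, at chr10:82858956-82859205, plus strand (GRCm38.p6), with the match in capitals on the opposite strand, 92 bases before the start.
Txnrd1: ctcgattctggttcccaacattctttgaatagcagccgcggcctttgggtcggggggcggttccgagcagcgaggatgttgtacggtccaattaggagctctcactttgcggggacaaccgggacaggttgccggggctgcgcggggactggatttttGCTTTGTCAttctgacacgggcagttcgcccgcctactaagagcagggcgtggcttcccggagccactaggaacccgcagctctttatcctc
Among the list 3 of 19 genes with a window held the core, against 11.5% of all genes.

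A few genes of protein breakdown and stress signalling rose. All 35 proteasome subunits had positive changes with a median of 0.34, and 5 rose by small amounts: Psma7 (0.59), Psmb5 (0.54), Psmd14 (0.45), Psma3 (0.44) and Psmb6 (0.38). Psma7 had 401, 409 and 422 in phosgene lungs and 277, 273 and 255 in air lungs, and it was the only one of the 5 whose call held (adjusted p = 0.00149). Of 29 immediate early genes 4 rose and 0 fell. Atf3, a stress-induced transcription factor, had 114, 88.7 and 109 in phosgene lungs and 49.5, 32.0 and 12.9 in air lungs (1.41 ± 0.33 SE on the log2 scale, adjusted p = 0.011). Air lungs spread widely for Atf3, and its call was lost without phosgene lung 1, phosgene lung 3 or air lung 3 (adjusted p = 0.069, 0.0633 and 0.144). Maff, a small MAF protein that pairs with NRF2, had 53, 36.4 and 74.6 in phosgene lungs and 11.7, 7.31 and 14.4 in air lungs (1.35 ± 0.24 SE on the log2 scale, adjusted p = 0.000585), and its call held. Myc and Junb were the other 2, with log2 changes of 1.13 and 0.59 and calls that did not hold. In the ATF4 and amino acid list, Ddit4, an inhibitor of mTOR signalling, Psat1 of serine synthesis and Slc3a2, a subunit of amino acid transporters, rose by 1.05, 1.04 and 0.58 on the log2 scale, while 23 of 26 members were not called. The calls of Ddit4 and Psat1 held. The chaperone Hspa5, a marker of endoplasmic reticulum stress, had 2257, 2921 and 2692 in phosgene lungs and 3020.5, 2896 and 2416 in air lungs, and 0 of 24 genes of that list were called. None of 22 p53 target genes was called either. Both counts of 0 are near the 1.98% called among all genes. Of the 22 p53 target genes 17 had positive changes, against 41.6% of all genes, and their median was 0.20 against −0.04. Their best known member, the cell cycle inhibitor Cdkn1a, had 479.8, 622 and 565 in phosgene lungs and 351, 219 and 326 in air lungs (adjusted p = 0.0879).

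Acute phase proteins, secreted in inflammation and made in lung epithelium as well as liver, held several of the largest rises. Of 26 measured, 5 rose, 0 fell and 21 were not called, the median was 0.16, and all 5 calls held. Lrg1, a leucine-rich glycoprotein that modulates TGF-beta signalling, had 1751, 1204 and 1746 in phosgene lungs, against 279, 292 and 280.1 in air lungs. Air lungs barely differed among themselves, phosgene lung 2 was the lowest of its group, and Lrg1 was 5.21-fold higher (2.38 ± 0.29 SE on the log2 scale, adjusted p = 9.13e-07). Serpina3n, a serine protease inhibitor, had 619.7, 607 and 904 in phosgene lungs and 176, 94.4 and 145 in air lungs, and was 4.74-fold higher (2.24 ± 0.33 SE on the log2 scale, adjusted p = 3.36e-05). Lcn2, which binds bacterial siderophores and is made by epithelium and neutrophils, had 1483, 1311 and 2137 in phosgene lungs and 294, 539.6 and 371 in air lungs. Lcn2 was 4.0-fold higher (2.0 ± 0.23 SE on the log2 scale, adjusted p = 5.46e-07). Itih4, an inter-alpha-trypsin inhibitor heavy chain, had 838, 903 and 563 in phosgene lungs and 238, 275 and 295 in air lungs (1.43 ± 0.23 SE on the log2 scale, adjusted p = 0.000137). Orm1, an orosomucoid that carries lipids and drugs, had 32.7, 16.9 and 52.8 in phosgene lungs and 8.39, 3.36 and 7.58 in air lungs, a rise at low signal (1.10 ± 0.21 SE on the log2 scale, adjusted p = 0.00111). Not every acute phase gene moved: haptoglobin, Hp, had 2491, 2475 and 2173 in phosgene lungs and 2414, 2249 and 2234 in air lungs, and Saa3, a serum amyloid, had 97.4, 86.1 and 129.5 in phosgene lungs and 74.7, 53.7 and 45.9 in air lungs (adjusted p = 0.293).

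The interleukin 6 and STAT3 list gave 4 rises and 0 falls among 24 genes, with a median of 0.20. Timp1, the secreted inhibitor of matrix metalloproteinases and a classical target of this pathway, had 703, 399.9 and 687 in phosgene lungs, against 83.2, 57.6 and 94.2 in air lungs. Even phosgene lung 2, the lowest, stood well above every air lung, and Timp1 was 6.39-fold higher (2.68 ± 0.27 SE on the log2 scale, adjusted p = 2.46e-08). Socs3, the feedback inhibitor of the receptor, had 277, 239 and 325 in phosgene lungs and 104, 131 and 140.1 in air lungs (1.07 ± 0.25 SE on the log2 scale, adjusted p = 0.0105), a call lost without phosgene lung 3 or air lung 1 (adjusted p = 0.0934 and 0.0795). Cebpd, a transcription factor of acute phase genes, rose by 1.02 and Osmr, the oncostatin M receptor chain, by 0.86 on the log2 scale, and the calls of Timp1, Cebpd and Osmr held. The ligand Il6 had 37.4, 26.7 and 33.5 in phosgene lungs and 16.8, 19.4 and 16.7 in air lungs, higher in each phosgene lung but near the bottom of the measured range (adjusted p = 0.34). Stat3 itself had 879, 1019 and 813 in phosgene lungs and 768, 578 and 598 in air lungs (adjusted p = 0.0901).

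Windows of Socs3 and Itih4 are shown as the 2 called members of these lists that held TTCNNNGAA, the core bound by STAT factors. They lie at chr11:117969367-117969616, minus strand and at chr14:30886226-30886475, plus strand (RefSeq, GRCm38.p6), with the match, 154 and 51 bases before the start, in capitals.
Socs3: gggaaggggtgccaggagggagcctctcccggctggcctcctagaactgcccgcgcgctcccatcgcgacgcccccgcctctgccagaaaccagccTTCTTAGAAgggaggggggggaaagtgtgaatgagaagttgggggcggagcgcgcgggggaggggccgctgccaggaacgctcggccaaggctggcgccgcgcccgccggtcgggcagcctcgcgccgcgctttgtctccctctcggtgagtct
Itih4: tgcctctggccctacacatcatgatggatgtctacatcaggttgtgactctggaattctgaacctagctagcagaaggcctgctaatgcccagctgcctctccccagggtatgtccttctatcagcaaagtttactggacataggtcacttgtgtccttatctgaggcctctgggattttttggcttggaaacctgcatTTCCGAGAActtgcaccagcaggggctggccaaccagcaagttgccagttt
In the acute phase list 4 of 19 genes with a window held it, in the interleukin 6 list 1 of 21, and among all genes 8.13%, and among the called members with a window 1 of 4 and 1 of 3 held it.

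**Figure D2:**
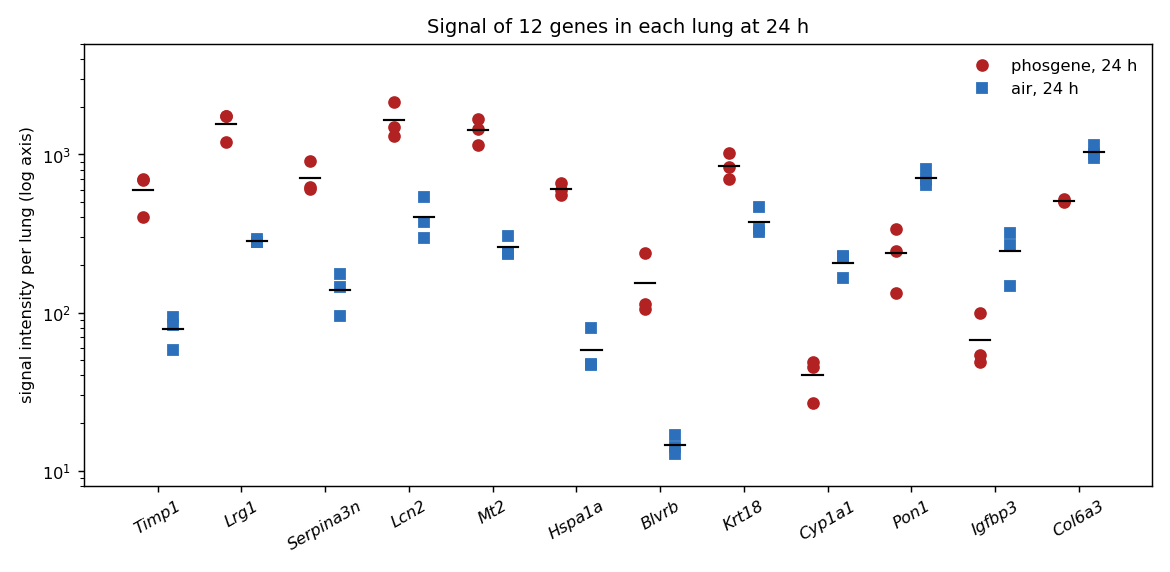
Signal intensity (log axis) of 12 genes in each lung at 24 h, with phosgene lungs as red circles left of air lungs as blue squares and the group mean as a line. In all 12 genes the 3 phosgene lungs lie beyond the 3 air lungs, higher for the 8 on the left and lower for Cyp1a1, Pon1, Igfbp3 and Col6a3.

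Genes that glucocorticoids induce in lung and other tissues formed the list of highest median. Of 22 members 8 rose, 0 fell and 14 were not called, and the median was 0.67. The 8 were Mt2, Zbtb16, Lcn2, Mt1, Errfi1, Ddit4, Cebpd and Angptl4, of which all but Zbtb16 also stand on other lists here, so the lists do not count separate genes. Zbtb16, a zinc finger repressor with a strong glucocorticoid response, had 152, 171 and 89.7 in phosgene lungs, against 18.2, 23.1 and 15.1 in air lungs. It was 4.30-fold higher with a wide error (2.11 ± 0.52 SE on the log2 scale, adjusted p = 0.0207), and its call was lost in 5 of the 6 omissions, all but that of phosgene lung 3 (adjusted p up to 0.101). Fkbp5, the cochaperone that tempers the glucocorticoid receptor, had 261, 247 and 255 in phosgene lungs and 141, 142 and 142 in air lungs (0.78 ± 0.24 SE on the log2 scale, adjusted p = 0.0975). Tsc22d3, the glucocorticoid-induced leucine zipper, had 646, 735 and 649 in phosgene lungs and 463, 437 and 444 in air lungs (0.58 ± 0.20 SE on the log2 scale, adjusted p = 0.148). Both genes were tightly grouped and fully apart in these lungs, and the SE, which pools the spread over all groups of the series, was wide beside that. Groups fully apart, in either direction, were found in 18.8% of all genes. The brightest probe set of Angptl4 was called, at a log2 change of 0.96, but the second brightest gave −0.19, and the call was kept in 1 of the 6 omissions.

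Markers of injured epithelium held the most called members of any list. Of 29 measured 11 rose, 1 fell and 17 were not called, the median was 0.51, and 7 of the 12 calls held. Among them were 4 keratins of simple epithelium, the intermediate filaments of a spreading or transitional alveolar cell. Krt18 had 837, 695 and 1016 in phosgene lungs, against 464, 321 and 335 in air lungs, and was 2.22-fold higher (1.15 ± 0.17 SE on the log2 scale, adjusted p = 3.36e-05). Its partner Krt8 had 1215, 928 and 1439 in phosgene lungs and 559, 538 and 577 in air lungs (1.05 ± 0.16 SE on the log2 scale, adjusted p = 3.84e-05). Krt19 rose by 0.97 and Krt7 by 0.79 on the log2 scale, all 4 keratin calls held, and Krt7, Krt8 and Krt19 were picked out after their values were seen. Phosgene lung 3 was the highest and lung 2 the lowest for each keratin. Sfn, the epithelial 14-3-3 sigma, had 37.7, 39.6 and 56.9 in phosgene lungs and 10.6, 9.02 and 7.45 in air lungs (1.27 ± 0.25 SE on the log2 scale, adjusted p = 0.00167). F3, tissue factor, which starts coagulation, had 218, 159 and 222 in phosgene lungs and 73.7, 67.7 and 82.3 in air lungs (1.24 ± 0.23 SE on the log2 scale, adjusted p = 0.000963). Cldn4, a tight junction claudin that is induced in injured alveolar epithelium, had 184, 122 and 165 in phosgene lungs and 67.5, 77.2 and 72.9 in air lungs (0.95 ± 0.17 SE on the log2 scale, adjusted p = 0.000607). The calls of Sfn, F3 and Cldn4 held.

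The other rises of that list were Tnfrsf12a, the receptor of TWEAK (1.07), Lgals3, a galectin (0.86), S100a6 (0.68) and Plaur, the urokinase receptor (0.51), each lost on omitting 1 lung or more. Tnfrsf12a, for example, had 229, 158 and 423 in phosgene lungs and 125, 113 and 95.7 in air lungs, and was lost only without phosgene lung 3 (adjusted p = 0.17). Sox4, a transcription factor, fell by 0.70 on the log2 scale, against the direction of the rest, and its call was lost in 4 of the 6 omissions. Among epithelial growth factors, Ereg, the EGF receptor ligand epiregulin, had 77.5, 42.3 and 57.2 in phosgene lungs and 13.3, 19.9 and 16.4 in air lungs (1.18 ± 0.23 SE on the log2 scale, adjusted p = 0.00188). Errfi1, a feedback inhibitor of that receptor, had 1133, 1108 and 1277 in phosgene lungs and 478, 569.5 and 417 in air lungs (1.25 ± 0.24 SE on the log2 scale, adjusted p = 0.00174), and both calls held while 28 of 31 genes of the list were not called. Tgm1, a transglutaminase that crosslinks the envelope of squamous cells, was on no list and had 60.8, 45.9 and 62.2 in phosgene lungs and 13.4, 10.3 and 18.3 in air lungs (1.27 ± 0.22 SE on the log2 scale, adjusted p = 0.000448).

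Genes of mature alveolar epithelium gave 1 call among 17 type 1 markers (5.88%) and 1 among 23 type 2 markers (4.35%), against 1.98% of all genes. Of the 17 alveolar type 1 markers 1 fell. Their changes were negative in 14 and positive in 3, against 41.6% positive among all genes, and their median was −0.25 against −0.04. The called gene, the claudin Cldn18, had 874, 809 and 849 in phosgene lungs and 1251, 1152 and 1167 in air lungs (-0.49 ± 0.12 SE on the log2 scale, adjusted p = 0.0239), but its call was lost in each of the 6 omissions (adjusted p up to 0.113) and its second brightest probe set gave 0.12. Of 23 alveolar type 2 markers 1 rose, the EGF-like protein Egfl6 (0.63), and that call was also lost in each omission (adjusted p up to 0.248). The lipid transporter Abca3, which loads surfactant into lamellar bodies, had 889.9, 1107 and 936 in phosgene lungs and 965, 948 and 995 in air lungs. None of 26 genes of sodium, water and ion transport was called, near the 1.98% of all genes.

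A few genes listed as airway secretory markers fell, and RNA of whole lung does not show in which cells. Of 25 club and goblet cell markers 3 fell and 0 rose, namely Ces1d, Cyp2f2 and Cbr2. Ces1d and Cyp2f2 are also counted among the cytochrome P450, flavin monooxygenase and paraoxonase genes below. The summed signal of the 25 genes ranged from 25453 to 28979 in phosgene lungs and from 31584 to 38829 in air lungs. This sum, like those given below, is weighted to the brightest genes and was not tested. Such sums were apart between groups in some lists and overlapped in others. Alveolar type 2 markers, for example, had 43403 to 48413 in phosgene lungs and 42913 to 49707 in air lungs. Ces1d, a carboxylesterase, had 626, 819 and 583 in phosgene lungs and 1121, 1189 and 1208 in air lungs (-0.80 ± 0.13 SE on the log2 scale, adjusted p = 0.000135), and its call held. Cyp2f2, the club cell cytochrome P450 that activates naphthalene, had 3006, 4176 and 2326 in phosgene lungs and 5732, 4997 and 4310.0 in air lungs, with phosgene lung 2 close to the lowest air lung (-0.69 ± 0.17 SE on the log2 scale, adjusted p = 0.0168). Its call, like that of Cbr2, a carbonyl reductase (-0.53), was lost on omitting phosgene lung 3 (adjusted p = 0.255 and 0.217) and other lungs. Of 16 ciliated cell markers only Tppp3, a tubulin polymerisation protein, was called lower, at 520.3, 438 and 359.9 in phosgene lungs and 1000.1, 925 and 934 in air lungs (-1.10 ± 0.25 SE on the log2 scale, adjusted p = 0.0091), a call lost without phosgene lung 3 (adjusted p = 0.0932). Foxj1, the master regulator of cilia, had 139.7, 97.4 and 107 in phosgene lungs and 117, 101 and 121 in air lungs.

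Enzymes that metabolise foreign compounds included the gene with the largest called fall, Cyp1a1. Of 26 cytochrome P450, flavin monooxygenase and paraoxonase genes 6 fell, 2 rose and 18 were not called. Cyp1a1, the P450 induced by the aryl hydrocarbon receptor, had 48.6, 26.9 and 45.1 in phosgene lungs, against 165, 227 and 223 in air lungs. The highest phosgene lung was far below the lowest air lung, and Cyp1a1 was 3.96-fold lower (-1.99 ± 0.29 SE on the log2 scale, adjusted p = 3.12e-05). Pon1, a lipid-bound esterase and lactonase, had 245, 338 and 133 in phosgene lungs and 804, 692 and 643 in air lungs, and was 3.03-fold lower (-1.60 ± 0.25 SE on the log2 scale, adjusted p = 8.31e-05). The calls of Cyp1a1 and Pon1 held. Cyp1b1, another target of the same receptor, had 68.8, 84.7 and 68.9 in phosgene lungs and 93.1, 108 and 62.0 in air lungs, with overlapping groups. Fmo1 fell by 0.60 on the log2 scale and Aox3 fell by 0.62. The 2 rises were sterol enzymes, Cyp7b1 (0.98), which hydroxylates oxysterols, and Cyp51 (0.79), a demethylase of cholesterol synthesis, and none of these 4 calls held. Ch25h, which makes 25-hydroxycholesterol, rose as well, at 211, 139 and 197 in phosgene lungs and 52.3, 59.2 and 68.9 in air lungs (1.37 ± 0.28 SE on the log2 scale, adjusted p = 0.00259), and its call held.

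Matrix genes split. Among 40 noncollagen matrix genes 3 rose, 6 fell and 31 were not called, and among 22 collagens 1 rose and 3 fell, with medians of −0.21 and −0.27 and 20 of the 22 collagen changes negative. The 3 rises were in genes known from wound repair. Tnc, tenascin C, had 440.3, 313 and 278 in phosgene lungs and 131, 120.4 and 130.0 in air lungs, and was 2.47-fold higher (1.30 ± 0.27 SE on the log2 scale, adjusted p = 0.00395), a call lost only without phosgene lung 1 (adjusted p = 0.0619). Lox, which crosslinks collagen and elastin, had 1645, 1242 and 2251 in phosgene lungs and 828, 732 and 743 in air lungs (1.10 ± 0.19 SE on the log2 scale, adjusted p = 0.000378), and its call held. Thbs1, thrombospondin 1, had 1008, 274 and 845 in phosgene lungs and 235, 227 and 281 in air lungs (1.27 ± 0.34 SE on the log2 scale, adjusted p = 0.0386). Phosgene lung 2 was inside the air range for Thbs1, and the call was lost in 5 of the 6 omissions, all but that of phosgene lung 2 (adjusted p up to 0.312). Ctsk, cathepsin K, a collagen-degrading protease, had 155, 171 and 149.7 in phosgene lungs and 38.1, 43.5 and 40.3 in air lungs, and was 3.08-fold higher (1.62 ± 0.36 SE on the log2 scale, adjusted p = 0.00708). With Timp1 it was the only called gene of 27 matrix proteases and inhibitors, and its call held.

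The falls were in structural matrix. Col6a3, a chain of the microfibrillar collagen VI, had 499.7, 507 and 526 in phosgene lungs, against 1154, 1009 and 952 in air lungs. Lungs within a group were close, and Col6a3 was 1.99-fold lower (-1.0 ± 0.12 SE on the log2 scale, adjusted p = 1.39e-06). Col6a2 of the same collagen fell by 0.55 and both calls held, while Col3a1 fell by 0.39 and Col8a1 rose by 0.78, calls that were each lost in 5 of the 6 omissions (adjusted p up to 0.314 for Col3a1 and 0.239 for Col8a1). Collagen I chain Col1a1 had 647, 690.3 and 1063 in phosgene lungs and 962, 1063 and 1155 in air lungs, with phosgene lung 3 inside the air range. Serpinh1, the chaperone that collagens need to fold, had 849, 802 and 1045 in phosgene lungs and 1740.4, 1473 and 1675 in air lungs (-0.85 ± 0.17 SE on the log2 scale, adjusted p = 0.00167), and its call held. Lama3, a laminin chain of epithelial basement membrane, had 206, 258 and 197 in phosgene lungs and 431, 420.5 and 492 in air lungs, with a tight spread (-0.98 ± 0.12 SE on the log2 scale, adjusted p = 1.43e-06). The other 5 falls of the noncollagen list were the elastic fibre proteins Mfap4 (-0.86) and Fbln5 (-0.71), the laminin chains Lamc1 (-0.69) and Lama4 (-0.50) and Npnt, nephronectin (-0.55), and none of these 5 calls held (for Mfap4, adjusted p = 0.31 without phosgene lung 1). Of 40 fibroblast markers 4 fell, namely Col3a1, Mfap4 and Npnt, already given above, and Macf1 (-0.44). None of these 4 calls held, and they are largely not separate genes from the matrix falls. The summed signal of the 40 genes was 21201 to 24998 in phosgene lungs and 29027 to 29947 in air lungs.

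A few vascular genes fell, and a binding protein of growth factors fell more. Igfbp3, which binds insulin-like growth factors, had 48.9, 99.2 and 54.1 in phosgene lungs and 269, 148 and 319.9 in air lungs, and was 3.11-fold lower (-1.64 ± 0.35 SE on the log2 scale, adjusted p = 0.00541). Its call was lost without phosgene lung 1 or 3 or air lung 3 (adjusted p = 0.0589, 0.0517 and 0.0645). The ligand Igf1 had 218, 286 and 238 in phosgene lungs and 395, 371 and 547 in air lungs (adjusted p = 0.176). Of 41 endothelial markers 3 fell, 0 rose and 38 were not called, and the median was −0.21. The 3 were the apelin receptor Aplnr (-0.84), the VEGF receptor Kdr (-0.71) and the adhesion molecule Icam2 (-0.43). Kdr had 730.3, 613 and 694 in phosgene lungs and 1162, 1134 and 1056 in air lungs (adjusted p = 0.0181), and its call was lost in 4 of the 6 omissions (adjusted p up to 0.0876). The calls of Icam2 and Aplnr were lost in 5 and 3 of the 6 (adjusted p up to 0.273 and 0.103). Cdh5, the junction cadherin of endothelium, had 851, 1034 and 816 in phosgene lungs and 1123, 969 and 1106 in air lungs, with 1 phosgene lung inside the air range.

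Among leukocyte lists, that of alveolar macrophages gave the most calls. Of 19 alveolar macrophage markers 4 fell (21.1%, against 0.936% of all genes) and 0 rose. Of 17 dendritic cell markers 2 fell (11.8%) and 0 rose. Siglecf, a sialic acid receptor of resident alveolar macrophages and eosinophils, had 4.45, 5.62 and 11.5 in phosgene lungs and 16.6, 41.0 and 29.8 in air lungs, all at low signal (-0.94 ± 0.26 SE on the log2 scale, adjusted p = 0.0437). Fabp1, a fatty acid binding protein, had 24.8, 30.6 and 19.7 in phosgene lungs and 56.0, 51.2 and 72.1 in air lungs (-0.88 ± 0.19 SE on the log2 scale, adjusted p = 0.00598). Abcg1, a sterol exporter, had 219, 232 and 258 in phosgene lungs and 392, 459 and 420.2 in air lungs (-0.80 ± 0.15 SE on the log2 scale, adjusted p = 0.000585), and of the 4 its call alone held. Itgax, the integrin CD11c, fell by 0.58, a call lost in each omission (adjusted p up to 0.241). The scavenger receptor Marco had 16.3, 50.5 and 154 in phosgene lungs and 76.9, 55.1 and 13.2 in air lungs, which overlapped widely. Csf1r, the receptor of macrophage colony-stimulating factor, fell by 0.57 and was the only call among 26 monocyte and macrophage genes (3.85%). The Csf1r call was lost without phosgene lung 1 or air lung 1 or 2 (adjusted p = 0.0792, 0.0517 and 0.0648).

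T and NK cell genes had 26 of 29 changes negative and 3 positive, against 41.6% positive among all genes. Their median was −0.30, against −0.04 for all genes. Of the 29, 2 fell (6.9%, against 0.936% of all genes), the chemokine Ccl5 and the adhesion receptor Cd2. Ccl5 had 101, 132 and 84.3 in phosgene lungs and 291, 191 and 194 in air lungs (-0.98 ± 0.23 SE on the log2 scale, adjusted p = 0.0156). Both calls were lost on omitting phosgene lung 3 or other lungs (adjusted p = 0.139 for Ccl5 and 0.0934 for Cd2 without that lung). The summed signal of the 29 genes was 1438 to 1509 in phosgene lungs and 1952 to 2281 in air lungs. None of 17 B and plasma cell genes and none of 8 MHC class II and antigen presentation genes was called, against 1.98% of all genes. Their medians were −0.29 and −0.34. Neutrophil genes gave 1 call among 19 (5.26%), Lcn2, which epithelium also makes. The neutrophil calgranulin S100a8 had 652, 144 and 482 in phosgene lungs and 205, 320.0 and 259 in air lungs, high in phosgene lungs 1 and 3 and lower in lung 2 than in any air lung. S100a9, its partner, followed the same order of lungs. Of the chemokines, Ccl2, which draws monocytes, had 59.2, 44.0 and 66.9 in phosgene lungs and 17.5, 12.3 and 23.2 in air lungs (1.11 ± 0.24 SE on the log2 scale, adjusted p = 0.00529), lost without phosgene lung 3 or air lung 2 (adjusted p = 0.0589 and 0.0537). Il33, an epithelial alarmin of the interleukin 1 family, had 683, 811 and 577 in phosgene lungs and 243, 331 and 289 in air lungs (1.22 ± 0.23 SE on the log2 scale, adjusted p = 0.00149), and its call held. None of 28 genes of NF-kappaB feedback and adhesion was called, near the 1.98% of all genes.

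For 3 of the named genes, Bhlhe40, Cxcl5 and Tspan4, air lungs of 24 h were called against untreated lungs, while phosgene lungs were not (adjusted p = 0.936, 0.969 and 0.447). Bhlhe40, a transcriptional repressor that acts in the circadian clock, had 152, 185 and 217 in phosgene lungs and 88.8, 59.0 and 66.0 in air lungs (2.30-fold higher, adjusted p = 0.00135), and its call held. Untreated lungs averaged 181, phosgene lungs differed from them by a log2 change of 0.06, and air lungs of 24 h were lower than untreated lungs by a log2 change of -1.14 (adjusted p = 0.0164). Cxcl5, a neutrophil chemokine, had 6.91, 5.56 and 8.54 in phosgene lungs and 66.5, 30.3 and 72.5 in air lungs (-1.60 ± 0.36 SE on the log2 scale, adjusted p = 0.00895), a call lost without air lung 1 or 3 (adjusted p = 0.0576 and 0.0736). Untreated lungs averaged 6.85, phosgene lungs differed from them by a log2 change of 0.05, and air lungs of 24 h were higher than untreated lungs by 1.65 (adjusted p = 0.0353). Tspan4, a tetraspanin, had 162, 168 and 186 in phosgene lungs and 80.7, 54.2 and 38.2 in air lungs (1.39 ± 0.32 SE on the log2 scale, adjusted p = 0.0121), but untreated lungs averaged 258, above every phosgene lung, and air lungs of 24 h were lower than untreated lungs by a log2 change of -1.92 (adjusted p = 0.00148). The Tspan4 call was lost without phosgene lung 3 or air lung 2 or 3 (adjusted p = 0.0749, 0.0524 and 0.112). Air lungs of 24 h differed from untreated lungs in 20 genes (0.161%). Against untreated lungs the changes of Cyp1a1, Pon1, Col6a3 and Timp1 were -1.44, -1.33, -1.06 and 2.60, against -1.99, -1.60, -1.0 and 2.68 relative to air. Blvrb had 1.62, against 2.39 relative to air, and Ctsk lost its call, at 1.08 (adjusted p = 0.0837). Of 113 named genes called at 24 h, 85 were called the same way against untreated lungs, 26 kept their direction without a call and 2 turned.

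**Figure D3:**
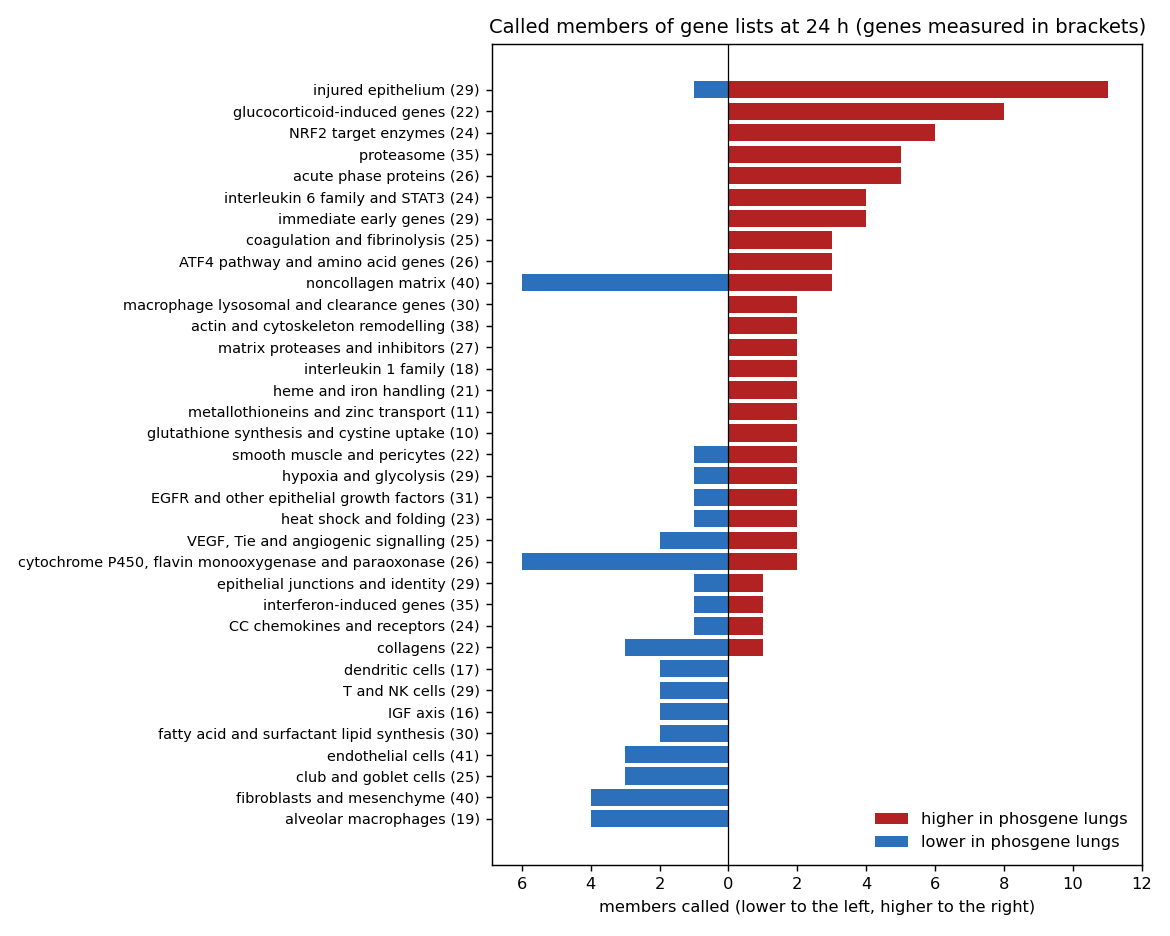
Number of members called at 24 h in each gene list with at least 2 called members (genes measured in brackets), with members lower in phosgene lungs to the left in blue and members higher to the right in red. Injured epithelium has the most rises, 11 of 29, and the noncollagen matrix and the P450, flavin monooxygenase and paraoxonase lists have the most falls, 6 each.

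Of the 246 called genes 110 were on a list and 136 on none of the 67 lists, and 16 lists had 0 called members. The largest rise outside the lists was Afp, alpha-fetoprotein, a serum protein of fetal liver and yolk sac. Afp had 81.3, 76.4 and 115 in phosgene lungs and 9.62, 16.6 and 6.99 in air lungs, and was 3.95-fold higher (1.98 ± 0.29 SE on the log2 scale, adjusted p = 3.84e-05), with a call that held. Slc7a10, an amino acid transporter, had 145, 121 and 177 in phosgene lungs and 321, 382 and 339 in air lungs (-1.16 ± 0.20 SE on the log2 scale, adjusted p = 0.00035). Slc38a5, a glutamine transporter, had 97.1, 107 and 75.9 in phosgene lungs and 219, 214 and 182 in air lungs (-1.02 ± 0.16 SE on the log2 scale, adjusted p = 8.72e-05). Acaa1b, a peroxisomal thiolase of fatty acid breakdown, had 36.0, 48.5 and 46.6 in phosgene lungs and 109, 112 and 102 in air lungs (-1.05 ± 0.18 SE on the log2 scale, adjusted p = 0.000203). These 3 calls held, as did that of Nrep (-1.24), a gene named for neuronal regeneration. Ddc, the decarboxylase of dopamine and serotonin synthesis found in pulmonary neuroendocrine cells, had 13.4, 30.1 and 28.8 in phosgene lungs and 51.4, 79.3 and 62.8 in air lungs (-1.02 ± 0.22 SE on the log2 scale, adjusted p = 0.00448), lost without phosgene lung 1 or air lung 2 (adjusted p = 0.0907 and 0.0546). The cardiac myosin Myh7 fell by 1.07, a call lost without phosgene lung 3 or air lung 3 (adjusted p = 0.0501 and 0.0721), beside the muscle marker Myl7 given above. In the cardiac muscle list 0 of 30 genes were called, near the 1.98% of all genes.

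The phosgene effect at 24 h was then set against those at 12 h and 48 h, each with air lungs of its own time. Of the 130 genes higher at 24 h, 76 were also called higher at 12 h (58.5% of the 24 h list and 46.6% of the 163 at 12 h) and 73 at 48 h (56.2% of the 24 h list and 21.2% of the 345 at 48 h). Of the 116 lower genes, 17 were called lower at 12 h (14.7% of the 24 h list and 26.6% of the 64 at 12 h) and 56 at 48 h (48.3% of the 24 h list and 17.0% of the 329 at 48 h). None of the 246 was called in the opposite direction at any other time. In all, 1.83% of genes were called at 12 h (1.32% higher and 0.516% lower) and 5.44% at 48 h (2.78% higher and 2.65% lower). Called the same way both before and after 24 h were 60 higher and 34 lower genes, and 15 higher and 31 lower genes were called at no other time. A missing call at another time is not a difference from 24 h. Of the 130 higher genes, 123 had positive changes at 12 h and 126 at 48 h, against 38.4% and 46.7% of all genes. Of the 116 lower genes, 112 had negative changes at 12 h and 112 at 48 h.

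The changes of single genes at other times follow as values, and differences from 24 h were tested only against 12 h and 48 h. Hspa1a had log2 changes of 5.24 at 4 h, 4.86 at 8 h, 3.01 at 12 h and 0.95 at 48 h. Gclc had 3.69 at 8 h, 1.90 at 12 h and 0.96 at 48 h. Timp1 changed by 1.43 at 8 h, 1.89 at 12 h and 2.49 at 48 h, and Lcn2 by 0.65, 1.27 and 2.18 at those times. Ctsk had -0.26 at 12 h and 1.32 at 48 h around its 1.62 at 24 h. Igfbp3 had −0.0046 at 12 h and -1.68 at 48 h. The test of the difference itself called 0 genes between 12 h and 24 h by limma, with 397 genes (3.2%) at an unadjusted p under 0.05, and fits of single chips called 6 to 10. For Ctsk the effect at 24 h minus that at 12 h was 1.88 ± 0.51 SE on the log2 scale (adjusted p = 0.818), which did not pass, and no gene is shown to differ between these times.

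**Figure D4:**
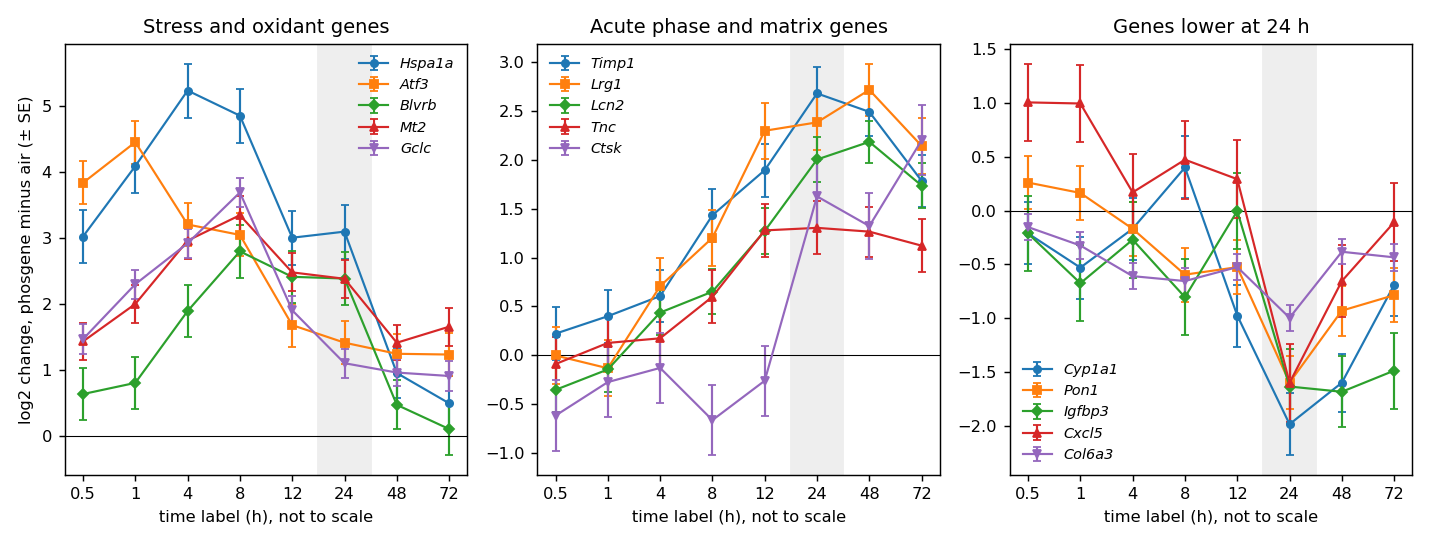
Log2 change, phosgene minus air (vertical axis, bars are SE), at the 8 labelled times (horizontal axis, not to scale) for 15 genes in 3 panels, with 24 h shaded. Hspa1a reaches 5.24 at 4 h and stands at 3.10 at 24 h, and Timp1 is at 2.68 at 24 h. Cyp1a1, Pon1, Igfbp3, Cxcl5 and Col6a3 have their lowest or near lowest values at 24 h. They were chosen for called falls at 24 h, so that place was largely fixed by selection. No difference from 12 h or 48 h was called for them.

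Cell division genes were not among the calls at 24 h. Of 45 mitosis genes 0 were called at 24 h, with a median change of 0.16, and of 47 DNA replication genes 0 were called, with a median of 0.12. Among all genes 1.98% were called at 24 h. Changes were positive in 35 of the mitosis and 34 of the DNA replication genes, against 41.6% of all genes, whose median was −0.04. The summed signal of the mitosis genes was 2820 to 3104 in phosgene lungs and 2480 to 2550 in air lungs. For DNA replication it was 4506 to 4963 in phosgene lungs and 4011 to 4132 in air lungs. These small shifts at 24 h were not tested as a set. At 48 h 34 mitosis genes and 19 DNA replication genes rose, against 2.78% of all genes, and the medians were 0.98 and 0.48. Mki67, a marker of cycling cells, had 57.0, 56.9 and 83.8 in phosgene lungs and 51.1, 58.3 and 56.8 in air lungs at 24 h, and its change at 48 h was 1.42. The test of the difference between 24 h and 48 h called 4 genes (0.0323%), with 678 (5.47%) at an unadjusted p under 0.05, and 3 of those 4 are mitotic regulators. Of the 4 calls, 1 was kept without phosgene lung 2 of 24 h, 2 without air lung 2 of 24 h, phosgene lung 1 or 3 of 48 h or air lung 4 of 48 h, 1 on chip A alone and 0 on chip B alone. Melk, a kinase of proliferating cells, had 2.0, 2.86 and 2.75 in phosgene lungs and 2.23, 3.10 and 1.85 in air lungs at 24 h, but 36.3, 25.1 and 37.9 in phosgene lungs and 1.35, 1.40, 1.75 and 2.63 in air lungs at 48 h. Its effect at 24 h minus that at 48 h was -1.44 ± 0.23 SE (adjusted p = 0.00318). Bub1b, a spindle checkpoint kinase, had 11.1, 6.78 and 11.4 in phosgene lungs and 6.66, 10.2 and 7.30 in air lungs at 24 h, and 83.4, 53.3 and 40.3 in phosgene lungs and 8.48, 5.05, 9.19 and 11.7 in air lungs at 48 h. The difference of effects was -1.48 for Bub1b and -1.22 for Aurka, the centrosomal kinase (adjusted p = 0.0162 for each). The fourth gene, Art3, an ADP-ribosyltransferase family member, differed the other way. Art3 had 116, 159.8 and 101 in phosgene lungs and 65.3, 105 and 85.0 in air lungs at 24 h, and 48.1, 62.4 and 52.2 in phosgene lungs and 91.6, 120.5, 141 and 127 in air lungs at 48 h.

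**Figure D5:**
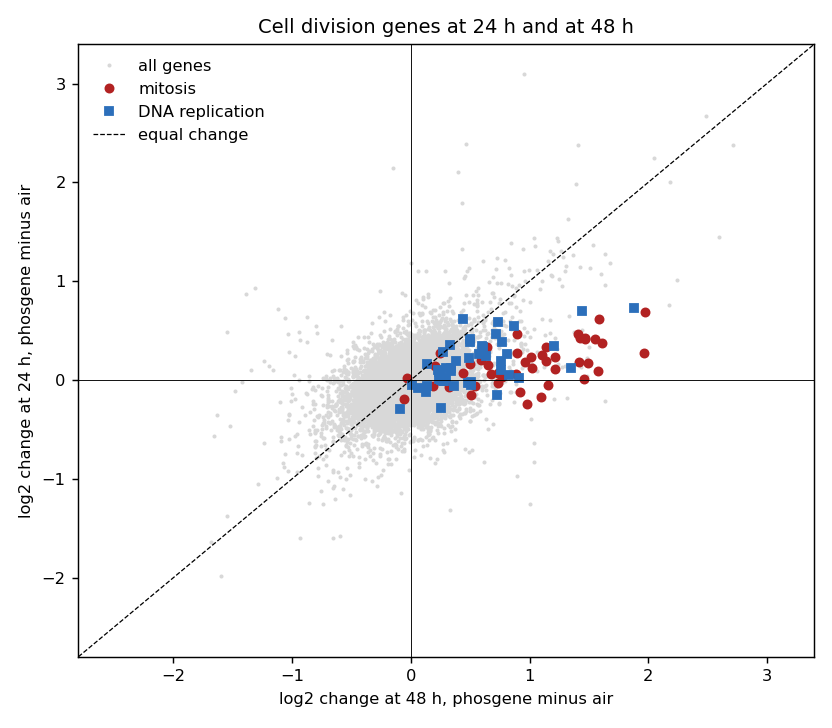
Log2 change, phosgene minus air, at 24 h (vertical axis) against that at 48 h (horizontal axis) for all genes (grey), 45 mitosis genes (red circles) and 47 DNA replication genes (blue squares), with a dashed line where both are equal. Most division genes lie below the line, with medians of 0.16 (mitosis) and 0.12 (DNA replication) at 24 h and of 0.98 and 0.48 at 48 h.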

How the data were processed

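Messenger RNA of 52 mouse lungs was measured on 104 chips, 2 for each lung. The deposited values are signal intensities on a linear scale for 22690 probe sets, scaled by the authors so that the mean with 2% trimmed at each end was equal (150.03 to 150.04 as recomputed here). The algorithm behind the intensities is not given in the sources used here. Chip medians at 24 h were 73.1 to 82.9 in phosgene lungs and 77.3 to 85.6 in air lungs. The deposited chip settings (unit other) gave 11 hybridization days and 3 chip lots and had no other use.

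An offset of 16 was added to each intensity, log2 was taken, and the 2 chips of a lung were averaged. Control probe sets (64) and those with several (691) or no gene symbols (1555) were left out, and the brightest of the remaining 20380 probe sets stood for each of 12393 genes, of which 4956 had more than 1. No dim genes were filtered out and no further normalization was applied. Of the 20380 probe sets, 20351 carried a gene ID found in the RefSeq gene table.

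All 17 groups were fitted with limma (1 mean per group, variance trend on intensity, 40.4 total degrees of freedom), and contrasts were tested on 2 sides with Benjamini-Hochberg adjustment. The members and the 67 gene lists (42 pathways, 25 cell or tissue markers) were chosen with earlier results of these data known, so lists are described by counts and medians. Genes were picked by rule, and not all of those picked are described above. The rule took the 15 largest rises and falls without overlap of lungs and the genes called between times. It also took up to 4 called members per list and direction, with up to 3 uncalled ones. Genes named as picked after their values were seen, Orm1, Tgm1, Psmb6, Fmo1, Aox3, Lama4, Taldo1 and Me1 fall outside the rule. The 113 named genes counted in this report are the called genes that the rule picked, described or not. Of the largest falls, Agtrap (-1.31), Thbs3 (-1.26), Gbp8 (-1.14) and Clec3b (-1.0) are not described. Their calls were kept in 2, 5, 1 and 1 of the 6 omissions. Replicate numbers do not pair phosgene with air lungs, and each lung is a numbered specimen. Promoter windows are the 250 bases before the start in RefSeq (GRCm38.p6). The number of arrays limits the precision. Fits used limma 3.58.1 in R 4.3.3. Tables and figures used pandas 2.3.3, numpy 2.4.6 and matplotlib 3.10.9 in Python 3.11.15.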

Additional observations from a re-analysis of the deposited data

Results flagged for a closer look

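The phosgene effect differed between 24 h and 48 h in 4 genes by the test of the difference itself, which is what singled them out. On the log2 scale, the effect at 24 h minus that at 48 h was −1.44 for Melk, −1.48 for Bub1b, −1.22 for Aurka and 1.43 for Art3. For the 3 mitotic genes the groups of 24 h overlapped in signal, while at 48 h every phosgene lung was above every air lung. For Art3 the phosgene lungs of 48 h were below every air lung of that time. Leaving out 1 lung at a time kept 1 to 4 of these 4 calls, with 1 kept without phosgene lung 2 of 24 h, and chip B alone kept 0.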

How the results depend on the processing

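Counts of called genes moved with the setting. The 246 calls at 24 h, 130 higher and 116 lower, became 160 with chips centred on their medians, 98 higher and 62 lower. They became 159 with the 6 lungs alone (94 higher and 65 lower) and 117 on chip B alone (66 higher and 51 lower). Against untreated lungs they became 466 (196 higher and 270 lower). Fits of single chips called 471 with the replicate block (chip letter) and the lung as a random block, 546 with hybridization day and 527 with chip lot as a term, and array weights called 525. The extra calls of the single-chip fits rest on correlations estimated over all genes (0.283 with the lung, 0.301 with day and 0.325 with lot) and are not added support. Offsets, quantile normalization, the other probe set choices, chip A, the bright genes, the fit with no trend and the fit without the rescanned chip gave 171 to 265. Leaving out each lung gave 94 to 224. Of 113 named genes called at 24 h, 0 changed sign in any omission of a lung. Against untreated lungs Cxcl5 had 0.052 and Tspan4 −0.53, and with the second brightest probe set Angptl4 had −0.19, Cldn18 0.12 and Zbp1 −0.35. Between 12 h and 24 h, 0 calls became 7 with the replicate block, 7 with day and 10 with lot, and 0 to 1 on leaving out lungs. Between 24 h and 48 h, 4 calls became 7 with an offset of 64, 0 with genes over intensity 100, 2 with the lungs of the comparison alone, 1 on chip A, 0 on chip B, 37 with the replicate block, 29 with day, 38 with lot and 15 with array weights, and 2 to 6 on leaving out lungs. Melk and Bub1b lay under intensity 100 in every lung of 24 h and 48 h. That filter left them out untested, so the count of 0 was partly fixed by it. The chip letter does not pair lungs (correlation of deviations −0.09), and the title gives another letter than the description on 56 of 104 chips. With the title letters, chosen after the values were seen, the replicate block called 482, 6 and 39 genes in the 3 comparisons. The causes were not tested.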
